A study of Aedes aegypti with 19 samples.

Results

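Ovaries of blood-fed (BF) *Aedes aegypti* held 101 genes whose RNA level was close to that of sugar-fed (SF) ovaries on day 3 post blood meal (PBM) and apart from it on both day 10 and day 20. Of these late-only genes, 72 were higher in BF ovaries on both late days, with a median BF/SF ratio of 1.54 on day 10 and 1.58 on day 20. The other 29 were lower, with a median ratio of 0.704 on day 10 and 0.687 on day 20. On day 3 the median ratios were 1.04 and 0.960. The genes were chosen by these same values from 9480 eligible genes, so that every BF/SF value given here is a description and carries no test.

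Eligible genes were protein coding, were listed under an AAEL identifier rather than a gene symbol, and had a mean of at least 1 CPM (total gene reads of a gene, scaled so that each library sums to 1000000) over the 19 libraries. They were drawn from the 19381 genes in the files. A gene was kept if the ratio of the BF mean to the SF mean was at least 1.3 on both late days, or at most 0.77 on both, with no overlap between the libraries of the diets on either day. Its day 3 ratio had to lie between 0.85 and the inverse of that value, rounded to 2 decimals. The 101 genes were 1.07% of those eligible, the 72 higher genes 0.759% and the 29 lower genes 0.306%. The split between directions depended on the scaling: with CPM scaled by TMM factors the same rule gave 50 higher and 48 lower genes, and by RLE factors 58 and 40. The files give no product name for an AAEL identifier, so that these genes are described by identifier, position, structure and level, and no function is given to any of them.

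The mosquitoes were of a strain from Poza Rica, Mexico, and were 4-7 days old at feeding. BF females took 1 meal of warmed sheep blood with no further blood meal, SF females took only sugar, and both were kept on 10% sucrose under the same conditions. On each of days 3, 10 and 20 the ovaries of several mosquitoes were pooled into 1 library after any eggs had been taken off. Each of the 6 groups had 3 libraries, numbered 1, 2 and 4, except day 3 BF, which had 4 with the addition of number 3, and values are given below in the order 1, 2, 4 and then 3. The study calls the numbers biological replicates. Because 1 collection of ovaries stands behind each library, p-values measure the spread between such collections.

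In this mosquito a blood meal starts a gonotrophic cycle. Hormones released after feeding drive the fat body to make yolk precursors, the follicles take these up, the eggshell is laid down and the eggs are laid within days. The ovary then holds the next set of small follicles, which rest until another blood meal. Day 3 therefore falls at the end of a cycle, and days 10 and 20 fall well after it, in females that were not offered blood again.

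Libraries held 34651820 to 56274885 gene reads, with a median of 48862876, and 90.9% to 92.9% of them were unique to 1 gene. No library stood at 0 reads for any of the 101 genes, and the smallest count in a single library was 16 reads. Intron reads made up 9.11% to 13.2% of gene reads in the day 3 BF libraries against 4.36% to 5.71% in day 3 SF, and 3.95% to 6.15% in all libraries of days 10 and 20. The germ line markers fixed by identifier (AAEL004978 and AAEL010097, 2 of 3 matched) were abundant in every library and summed to less in BF than in SF on each day. The sum followed AAEL010097, the more abundant of them. AAEL004978 by itself was higher in BF on day 10, at 1509 to 1631 CPM against 1448 to 1467 CPM in SF. On days 3 and 20 its libraries overlapped between the diets. The sums were 4465 to 5737 CPM in SF and 3830 to 4276 CPM in BF ovaries on day 3, 4969 to 5597 and 4162 to 4506 CPM on day 10, and 5346 to 5798 and 4302 to 4705 CPM on day 20. Sums of the markers listed for other tissues were small, and none of them measures an amount of tissue. The fat body identifiers are vitellogenin genes, which by the study's account become active after a blood meal. Their sum cannot tell more fat body from a higher level per cell. The 3 fat body identifiers (AAEL010434, AAEL006138 and AAEL006126) summed to 0.480 to 1.14 CPM in SF libraries and 3.95 to 8.97 CPM in BF libraries over all days, and the 2 gut genes (LT1 and MAL1) to at most 0.682 CPM. The eggshell gene 15a-1 lay at 0.271 to 3.46 CPM in day 3 BF libraries and at no more than 0.164 CPM in all others. The 7 haemocyte PPO genes summed to 5.32 to 6.27 CPM in SF and 7.61 to 8.77 CPM in BF ovaries on day 10, to 6.44 to 7.21 and 6.96 to 9.37 CPM on day 20, and to 6.72 to 10.0 and 7.21 to 9.44 CPM on day 3. The germ line sum, lower in BF, and the fat body sum, higher in BF, were thus apart between diets on all days, the gut sum on days 3 and 10, the eggshell gene on day 3 and the haemocyte sum on day 10. Their part in the results below was not tested. In whole ovaries, a change in the number of cells of a type and a change in RNA per cell cannot be told apart.

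Whole-set levels separated the diets on the late days. The geometric mean level of the 72 higher genes was 10.2 to 10.7 CPM in day 3 SF libraries and 9.93 to 11.7 CPM in day 3 BF libraries. On day 10 it was 8.68 to 9.45 CPM in SF and 14.2 to 15.6 CPM in BF, and on day 20 it was 8.23 to 8.44 CPM and 13.05 to 14.5 CPM. The 29 lower genes had a geometric mean of 21.5 to 23.5 CPM in SF and 13.9 to 14.9 CPM in BF on day 10, and of 22.5 to 23.7 CPM and 13.9 to 16.5 CPM on day 20. The diets overlapped on day 3 in both sets and in no late library, as the rule required of each gene.

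**Figure D1:**
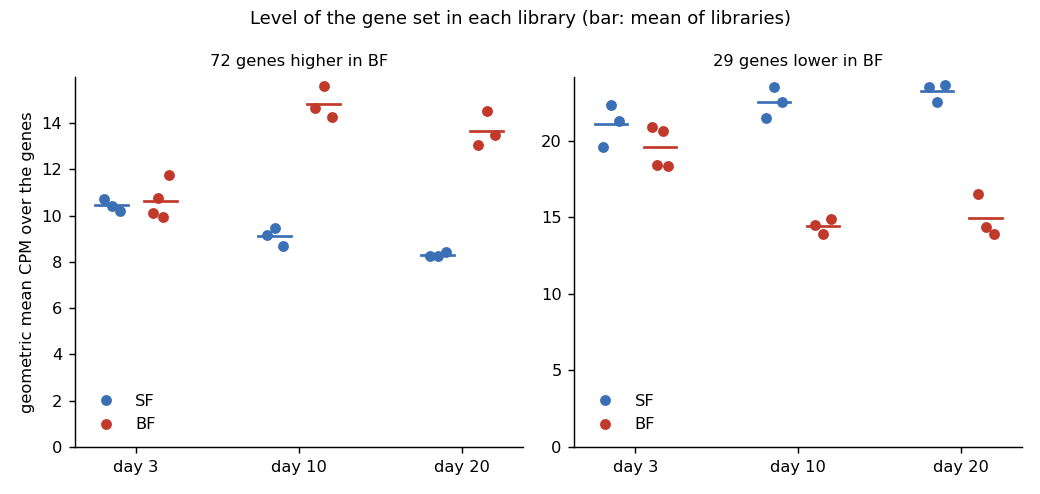
Geometric mean CPM over the 72 genes higher in BF (left) and the 29 genes lower in BF (right), 1 point per library, in SF (blue) and BF (red) ovaries by day, with a bar at the mean of the libraries. The day 3 points of both diets overlap, and on days 10 and 20 the BF points of the left panel lie at 13.05 CPM or above and the SF points at 9.45 CPM or below.

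Late-only genes were a minor part of the genes apart on both late days. The day 3 window itself was met by 28.01% of all eligible genes. Of all eligible genes, 24.6% had every BF library above every SF library on day 10 and 18.9% every BF library below, and on day 20 the shares were 24.6% and 17.1%. With the fold limits added, 854 eligible genes (9.01%) were higher in BF on both late days. Among these 854 genes the day 3 ratio lay above the window in 756 (88.5%), below it in 26 (3.04%) and within it in the 72 late-only genes (8.43%). On the lower side 121 genes (1.28%) passed on both late days. Of these, 86 (71.1%) lay below the day 3 window, 6 (4.96%) above it and 29 (23.97%) within it, a share near that of all eligible genes. On day 3 the libraries of the diets overlapped for 96 of the 101 genes, whereas they overlapped for 31.2% of eligible genes. Nothing is read from that difference, because the rule limited the day 3 ratio.

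The fold limits cut through a continuous range. On day 10 AAEL014451 was kept at a ratio of 1.304, and AAEL009259 was left out at 1.291. On day 20 AAEL019940 was kept at 1.303 and AAEL008090 left out at 1.286. Among lower genes AAEL011745 was kept on day 10 at 0.766 and AAEL022774 left out at 0.775, and on day 20 AAEL014389 was kept at 0.767 and AAEL020042 left out at 0.772. At the day 3 edges of the higher genes AAEL019839 was kept at 0.855 and AAEL005585 left out at 0.846, while AAEL013374 was kept at 1.179 and AAEL022945 left out at 1.184. For the lower genes the edges fell between AAEL008015 at 0.863 and AAEL013316 at 0.831, and between AAEL009623 at 1.14 and AAEL002158 at 1.25.

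Most of the late differences were moderate. The higher genes ranged from 1.304 to 3.03 on day 10 and from 1.303 to 2.77 on day 20. A ratio of at least 2 was reached by 12 of the 72 on day 10 and by 12 on day 20, 8 of them on both days. The lower genes ranged from 0.0954 to 0.766 on day 10 and from 0.218 to 0.767 on day 20, and a ratio of at most 0.5 by 2 of the 29 on day 10, by 3 on day 20 and by 2 on both days. The difference was further from 1 on day 20 than on day 10 in 36 of the 72 higher genes and in 13 of the 29 lower genes. The nearest libraries of the diets were close for many genes. The lowest BF library exceeded the highest SF library by a median of 1.21 times on day 10 and 1.23 times on day 20 among higher genes, and this nearest ratio was itself at least 1.3 in 23 of the 72 genes on either day. Among lower genes the highest BF library stood at a median of 0.862 of the lowest SF library on day 10 and 0.844 on day 20, and at most 0.77 in 4 and 6 of the 29 genes.

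**Figure D2:**
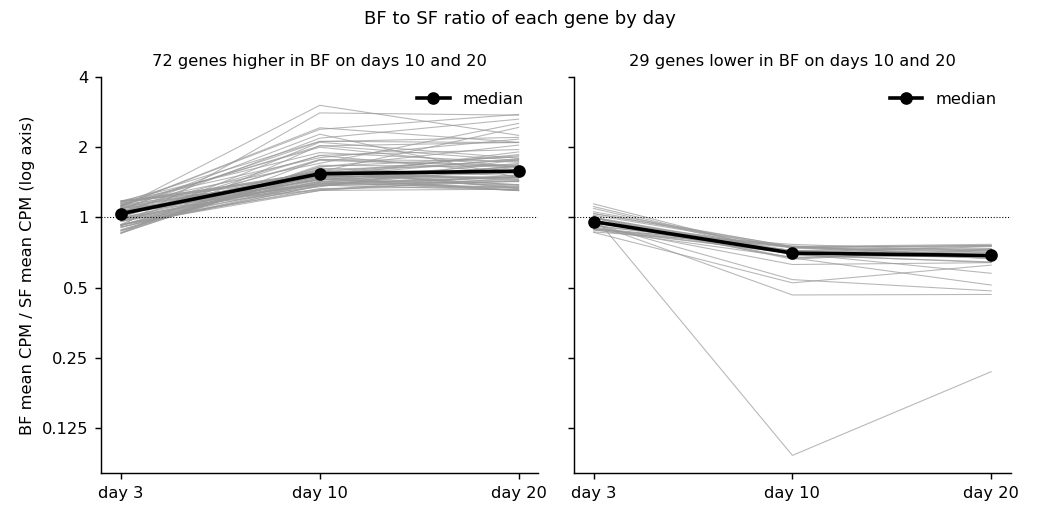
Ratio of BF mean CPM to SF mean CPM on a log axis by day, 1 grey line per gene, for the 72 higher genes (left) and the 29 lower genes (right), with the median of the set in black. The medians run from 1.04 on day 3 to 1.54 and 1.58 on days 10 and 20 on the left, and from 0.960 to 0.704 and 0.687 on the right, where the lowest line is AAEL013829.

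Among the higher genes, the widest gap between libraries on day 10 was that of AAEL004231 (chr1:104507795-104538667, plus strand, 7 exons). Its SF libraries held 8.77, 7.64 and 6.49 CPM on day 3, 8.21, 7.37 and 5.93 CPM on day 10, and 5.42, 5.34 and 6.50 CPM on day 20. Its BF libraries held 6.39, 7.16, 4.12 and 10.4 CPM on day 3, 21.7, 19.5 and 19.2 CPM on day 10, and 13.6, 19.5 and 14.4 CPM on day 20. On day 3 the SF values lay inside the BF range, and on each late day the lowest BF library was at least 2.08 times the highest SF library. The ratios were 0.919, 2.81 and 2.75, which on the log2 scale of the fitted model were -0.17 (SE 0.22), 1.43 (SE 0.23) and 1.38 (SE 0.23).

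AAEL006323 (chr3:2724829-2727470, minus strand, 2 exons) had day 10 BF libraries close together. SF ovaries held 7.37, 7.40 and 8.92 CPM on day 3, 8.52, 7.30 and 9.81 CPM on day 10, and 9.79, 7.80 and 7.47 CPM on day 20. BF ovaries held 8.53, 8.51, 8.03 and 7.76 CPM on day 3, 18.8, 18.7 and 18.5 CPM on day 10, and 17.8, 23.2 and 25.3 CPM on day 20. The SF level thus stayed within 7.30 to 9.81 CPM over 20 days, and all 6 late BF libraries lay above it, at ratios of 2.19 on day 10 and 2.64 on day 20 after 1.04 on day 3.

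The largest day 10 ratio, 3.03, belonged to AAEL000596 (chr2:407527362-407560258, plus strand, 13 exons), whose SF libraries were uneven. They held 4.80, 3.90 and 1.52 CPM on day 3, 2.70, 3.13 and 1.16 CPM on day 10, and 2.11, 3.12 and 4.00 CPM on day 20. The BF libraries held 3.74, 4.39, 3.24 and 3.71 CPM on day 3, 7.31, 8.04 and 5.82 CPM on day 10, and 6.21, 9.13 and 5.44 CPM on day 20. With 1 library left out at a time its day 10 ratio ran from 2.42 to 3.65 and its day 20 ratio, 2.25, from 1.89 to 2.65. The gene met the rule in 17 of the 19 omissions.

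AAEL009334 (chr2:404723258-404788657, plus strand, 20 exons) had 1 BF library above the others. Its BF libraries held 12.97, 7.16 and 8.06 CPM on day 10 and 12.2, 8.10 and 8.60 CPM on day 20, with replicate 1 the highest on both days, and 4.00, 6.06, 4.58 and 5.67 CPM on day 3. Its SF libraries held 5.14, 5.25 and 3.63 CPM on day 3, and all 6 later ones lay between 4.16 and 4.76 CPM. The ratios were 1.09, 2.12 and 2.21. Without 1 library at a time they fell no lower than 1.71 on day 10 and 1.91 on day 20.

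AAEL001641 (chr2:299037657-299047293, plus strand, 5 exons) was further apart on day 20 than on day 10. Its SF libraries held 4.82, 5.76 and 8.62 CPM on day 3, 4.54, 5.32 and 6.98 CPM on day 10, and 4.39, 5.16 and 4.38 CPM on day 20. Its BF libraries held 5.67, 7.10, 8.49 and 8.05 CPM on day 3, 7.07, 8.94 and 12.7 CPM on day 10, and 10.7, 10.8 and 13.7 CPM on day 20. On day 10 the lowest BF library was only 1.01 times the highest SF library, and on day 20 it was 2.08 times, at mean ratios of 1.71 and 2.53 after 1.14 on day 3.

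The other 3 genes with the largest late rises were expressed near 1 CPM, with as few as 22 reads in a library, and so are measured less precisely. AAEL015113 (chr2:199351062-199353479) held 0.685, 0.402 and 0.890 CPM in SF and 1.76, 1.43 and 1.53 CPM in BF ovaries on day 10, and 0.444, 0.633 and 0.863 against 1.59, 1.67 and 2.11 CPM on day 20. AAEL000530 (chr3:386444742-386446941) held 0.883, 0.914 and 0.525 CPM in SF and 1.95, 2.196 and 1.49 CPM in BF ovaries on day 10. AAEL012774 (chr1:290636663-290655570), which overlaps a gene on either strand, held 0.576, 0.805 and 0.890 CPM in SF and 1.67, 1.69 and 1.47 CPM in BF ovaries on that day. In all 3 genes the BF level on day 3 was between 1.04 and 1.33 CPM on average, and the SF mean was lower on the late days, for example 0.757 CPM on day 10 after 1.14 CPM in AAEL012774.

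**Figure D3:**
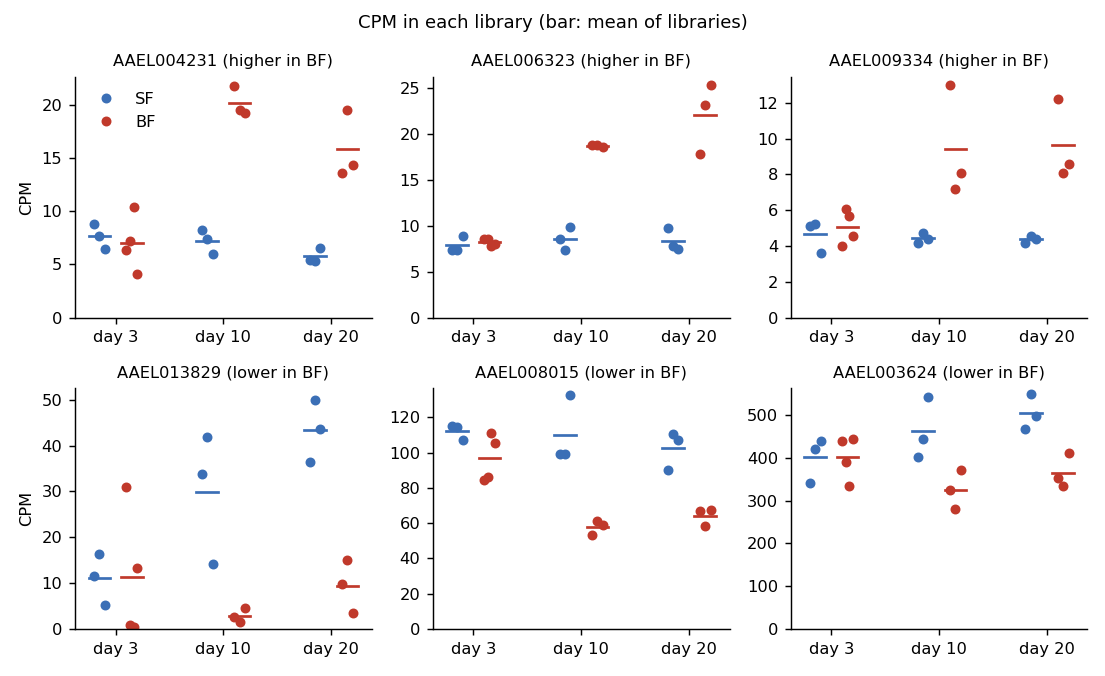
CPM of 6 genes in each library, in SF (blue) and BF (red) ovaries on days 3, 10 and 20, with a bar at the mean of the libraries and each axis starting at 0. In AAEL004231, AAEL006323 and AAEL009334 the late BF points lie above all SF points of the same day, in AAEL013829, AAEL008015 and AAEL003624 below, and the day 3 BF points of AAEL013829 spread from 0.334 to 30.9 CPM.

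The 3 most abundant higher genes were AAEL019740 (chr2:115534084-115595192, minus strand, 9 exons), AAEL019534 (chr1:206920656-207038089, plus strand, 5 exons) and AAEL019940 (chr3:215729727-215806197, minus strand, 12 exons). AAEL019740 held 283, 327 and 354 CPM in SF and 398, 437 and 489 CPM in BF ovaries on day 10, and 265, 316 and 283 against 359, 361 and 414 CPM on day 20. AAEL019534 held 256, 274 and 258 against 374, 415 and 329 CPM on day 10, and 235, 223 and 234 against 305, 311 and 288 CPM on day 20. Their day 3 means did not differ beyond the spread of the libraries, being for AAEL019740 SF 349 ± 34.9 CPM (SD, n = 3) and BF 381 ± 32.9 CPM (SD, n = 4), and for AAEL019534 SF 337 ± 19.2 CPM and BF 335 ± 13.7 CPM. In AAEL019534 all late SF libraries thus lay below the day 3 SF mean. The BF libraries lay on both sides of their day 3 mean on day 10, and all of them lay below it on day 20.

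On the lower side AAEL013829 (chr2:315812707-315855748, plus strand, 4 exons) stood apart in size, and its day 3 ratio of 1.02 hides a wide spread. SF ovaries held 11.6, 16.4 and 5.27 CPM on day 3, 33.9, 41.8 and 14.2 CPM on day 10, and 36.4, 49.96 and 43.6 CPM on day 20. BF ovaries held 30.9, 0.779, 13.2 and 0.334 CPM on day 3, 2.68, 1.41 and 4.48 CPM on day 10, and 9.87, 15.03 and 3.44 CPM on day 20. The highest day 3 BF library was 92.6 times the lowest, against a median of 1.33 times over the 101 genes in that group. Agreement of the day 3 means was therefore not agreement of the libraries, while the late ratios of 0.0954 and 0.218 came from libraries that did not overlap.

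AAEL008015 (chr1:75581511-75657457, minus strand, 5 exons) was abundant and lower on both late days, with a day 3 ratio near the edge of the window. SF ovaries held 115, 114 and 107 CPM on day 3, 99.0, 99.5 and 132 CPM on day 10, and 90.4, 111 and 107 CPM on day 20. BF ovaries held 84.6, 86.4, 105 and 111 CPM on day 3, 53.5, 61.0 and 59.0 CPM on day 10, and 66.9, 58.4 and 67.3 CPM on day 20. The SF libraries overlapped across the 3 days, and all 6 late BF libraries lay below the 4 of day 3, at ratios of 0.524 and 0.625 after 0.863. On the log2 scale of the fitted model the day 3 value was -0.26 (SE 0.11), and the day 3 ratio of exon reads was 0.769. Its means were thus already apart on day 3, though the libraries of the diets overlapped.

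AAEL021489 (chr1:98669421-98671782, minus strand, 3 exons) and AAEL013606 (chr2:173255651-173286287, minus strand, 4 exons) had lower means on the late days in both diets, and the lowest in BF. AAEL021489 went from 10.3, 10.7 and 11.1 CPM in SF on day 3 to 7.10, 8.45 and 8.53 CPM on day 10, and in BF from 9.56, 10.2, 9.51 and 9.76 CPM to 5.51, 5.06 and 4.56 CPM. AAEL013606 went from 6.18, 7.99 and 3.91 CPM to 3.87, 5.05 and 3.17 CPM in SF, and from 5.37, 7.39, 5.35 and 4.59 CPM to 1.89, 3.00 and 1.65 CPM in BF. Their BF/SF ratios were 0.628 and 0.541 on day 10 and 0.640 and 0.484 on day 20. AAEL011440 (chr2:225608336-225638207), a gene near 1 CPM that overlaps another on the opposite strand, had SF means of 1.66 and 1.47 CPM and BF means of 0.771 and 0.687 CPM on the late days.

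The 3 most abundant lower genes were AAEL003624 (chr3:301416817-301448654), AAEL018182 (chr3:22124115-22153256) and AAEL013279 (chr2:94717711-94729781). AAEL003624 held 403, 444 and 542 CPM in SF and 325, 281 and 373 CPM in BF ovaries on day 10, and 467, 549 and 497 against 353, 334 and 411 CPM on day 20, after means of 402 and 403 CPM on day 3. AAEL018182 had SF libraries close together, at 196, 199 and 195 CPM in SF and 150, 131 and 157 CPM in BF ovaries on day 10. In AAEL003624 the late means were above that of day 3 in SF and below it in BF. The SF libraries of day 20 lay above all 3 of day 3, whereas the late BF libraries overlapped those of day 3.

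For 7 of the 101 genes (6.93%, against 5.86% of eligible genes) under 50% of the reads were unique to the gene, and their values are uncertain. In 3 of the genes named by their size or time course the direction was lost when unique reads alone were counted. The day 20 ratio of AAEL011497, 1.77 on all reads, was 0.983 on unique reads, that of AAEL020319 was 0.576 and 1.03, and AAEL017192, lower at 0.671 and 0.513, was higher on unique reads at 1.39 and 1.43. These genes had 1.69%, 0.383% and 9.18% unique reads. AAEL014752 on chromosome 1 and AAEL025965 on an unplaced scaffold had the same exon length of 2027 bases and 0% unique reads, and their mean levels over all libraries were 11.5 and 11.7 CPM. AAEL025965 and AAEL020319 lie 4.68 kb apart on that scaffold with no protein-coding gene between them, and which gene each shared read came from was not resolved.

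In most of the genes, though not all, both diets moved in the direction that opened the gap, which the rule itself favours. From day 3 to the mean of the late days, the 72 higher genes had a median change of 0.36 on the log2 scale in BF ovaries and -0.26 in SF ovaries. Both diets moved apart in 52 of them, only BF moved in the opening direction in 11 and only SF in 9, and BF moved more than SF in 45. The 29 lower genes had median changes of -0.34 in BF and 0.11 in SF, with both diets opening the gap in 20, BF alone in 7 and SF alone in 2. These changes share their libraries with the rule, and so are given without a test. The same counts were not made for all eligible genes, and nothing is read from them.

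In 9 higher genes the BF level, averaged over both late days on the log2 scale, was not above that of day 3. Among these were AAEL008879, AAEL019534 and AAEL019940, at BF changes of -0.20, -0.0004 and -0.24. In none of these named genes was the day 10 BF mean below that of day 3. AAEL008879 (chr2:127230326-127250994, minus strand, 7 exons) had SF means of 36.4 CPM on day 3 and 28.2 and 19.3 CPM later, and stood in BF at 41.8, 44.4 and 30.0 CPM. AAEL019940 had SF means of 160, 124 and 99.5 CPM, and stood in BF at 181, 182 and 130 CPM. In both genes the means of both diets on day 20 were under those of day 3, and the SF means were further under.

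**Figure D4:**
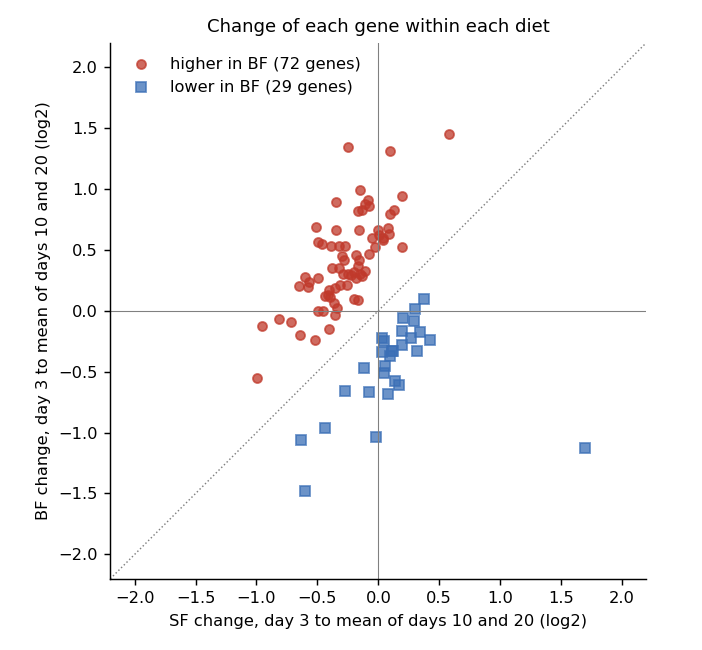
Log2 change of mean CPM from day 3 to the mean of days 10 and 20 in SF ovaries (horizontal axis) and BF ovaries (vertical axis), 1 point per gene, for the 72 higher (red circles) and 29 lower genes (blue squares), with a dotted line where both diets changed equally. The rule places red points above the line and blue points below it, 52 red points lie at the upper left, where the SF mean was lower and the BF mean higher than on day 3, and the blue square at 1.70 on the horizontal axis is AAEL013829.

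Within single diets, libraries of different days can be set against each other with the share of all eligible genes beside them. In SF ovaries 35 of the 72 higher genes (48.6%) had every day 20 library below every day 3 library, against 22.4% of eligible genes, and 2 had every library above, against 20.0%. In BF ovaries 38 of the 72 (52.8%) had every day 10 library above every day 3 library, against 37.9% of eligible genes. On day 20 this number was 28 (38.9%, against 36.6%). Of the 29 lower genes, 17 (58.6%) had every BF day 10 library below every BF day 3 library, against 30.5% of eligible genes, and 17 (58.6%) did so on day 20, against 34.3%. The rule itself favours these directions.

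Change with time averaged over the diets had no limit in the rule and was tested for all 13904 genes with enough reads, which held all 101. The test is not fully separate from the rule, because it uses the same libraries and the rule's day 3 window leaves out genes whose BF level stood apart on that day. It asks whether the mean of both diets changed with time, and cannot tell a change in both diets from a change in BF alone. Between days 3 and 10, 31 of the 101 genes changed at an FDR p-value under 0.05 in edgeR's quasi-likelihood test, 23 upward and 8 downward (30.7%, against 53.6% of all genes tested, with 26.4% upward and 27.2% downward). Between days 3 and 20, 48 changed, 26 upward and 22 downward (47.5%, against 63.7%, with 29.4% upward and 34.3% downward). Nothing is read from the shares beside those of all genes, since the day 3 window, which 28.01% of eligible genes met, bears on them.

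By direction, the higher genes gave 23 rises and 1 fall between days 3 and 10, and the lower genes 0 rises and 7 falls. Where 1 diet alone moved, the average moves with it, so that this split is not separate from the rule. Between days 3 and 20 the higher genes gave 20 rises and 14 falls and the lower genes 6 and 8. This split depended on the scaling: with upper-quartile factors, which moved the median log2 change of all genes between days 3 and 20 from -0.09 to -0.19, the 101 genes gave 9 rises and 36 falls between days 3 and 20 and 17 and 15 between days 3 and 10, and with exon reads 17 and 27, and 16 and 13.

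The largest rise with time was that of AAEL011497, by 0.96 on the log2 scale (SE 0.19, edgeR FDR p-value 0.000297) to day 10 and 1.12 (SE 0.19, FDR p-value 4.03e-05) to day 20, in a gene with 1.69% unique reads. The fit on unique reads did not hold AAEL011497, so its rise was not tested on them. AAEL006323, a gene with almost no shared reads, rose by 0.67 (SE 0.10, FDR p-value 1.74e-05) and 0.79 (SE 0.10, FDR p-value 1.47e-06). The SF level of AAEL006323 stayed within 7.30 to 9.81 CPM, so that its rise was that of the late BF libraries, which the rule used. The largest fall was that of AAEL013606, at -0.97 (SE 0.21, FDR p-value 0.000736) and -1.07 (SE 0.21, FDR p-value 0.000203), and AAEL021489 changed by -0.67 (SE 0.10, FDR p-value 3.69e-05) and -0.68 (SE 0.10, FDR p-value 1.78e-05). The falls of AAEL013606 and AAEL021489 are not separate from the rule either, since the averages hold the late BF libraries that it used. For AAEL013606 the log2 change to the mean of the late days was -0.60 in SF and -1.48 in BF ovaries. For AAEL021489 it was -0.44 in SF and -0.96 in BF ovaries. The early and late SF libraries overlapped in AAEL013606 and did not in AAEL021489. The change in SF ovaries alone was not tested.

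Between days 10 and 20 only 6 of the 101 genes changed by edgeR (5.94%, against 7.2% of all genes), all of them downward, against 2.46% downward and 4.74% upward in all genes, and all of them higher in BF. AAEL008879 changed by -0.54 (SE 0.08, FDR p-value 0.00225), AAEL019940 by -0.39 (SE 0.07, FDR p-value 0.0047) and AAEL019534 by -0.23 (SE 0.05, FDR p-value 0.00774). The other 3, named after their values were seen, were AAEL004713 (-0.26), AAEL000215 (-0.22) and AAEL003083 (-0.22). Without day 10 BF replicate 2 only the first 3 were called. The single direction held with limma-voom, which called 6 genes, all downward, but not with every alternative. DESeq2 called 13 genes, 9 downward and 4 upward, 3 of these 4 lower in BF, and edgeR with RLE factors called 7, 1 of them upward. The remaining 95 genes were not called between the late days by edgeR, which does not show that their levels were equal.

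Intron and exon reads of these genes did not move together on day 3. Enough intron reads (at least 100 in every group) were present for 20 higher and 12 lower genes, beside 5092 eligible genes. Intron reads were compared as shares of gene reads. On day 3 their BF/SF ratio had a median of 1.99 in the 20 higher and 2.62 in the 12 lower genes, against 2.61 in the eligible genes. It was above 1 in 19 of the 20 (95%) and 11 of the 12 (91.7%), against 95.6% of eligible genes. Exon reads of the same genes had day 3 medians of 0.893 and 0.896, against 0.882. A day 3 ratio near 1 in gene reads therefore held more intron reads and fewer exon reads in BF, as it did over the eligible genes.

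Exon reads made up most of the gene reads by which the genes were chosen, so that their late ratios follow from the rule. Intron reads made up the rest of those gene reads. Their late ratios are thus not separate from the rule either, and are given as a description. The median exon ratio was 1.42 on both late days in the 20 higher genes and 0.711 and 0.708 in the 12 lower genes, against 1.02 and 0.993 in eligible genes. Intron ratios of the higher genes were above 1 in all 20 on both days, against 91.0% and 95.2% of eligible genes, with medians of 1.45 and 1.56, against 1.26 and 1.38. In the 12 lower genes the intron medians were 1.01 and 1.176, with 7 of 12 (58.3%) above 1 on each day, against the same 91.0% and 95.2%. Both medians were thus near or above 1 and below those of the eligible genes. AAEL008015 had exon ratios of 0.769, 0.490 and 0.587 and intron ratios of 2.81, 1.13 and 1.29 on the 3 days. AAEL019534 had exon ratios of 0.868, 1.43 and 1.303 and intron ratios of 2.34, 1.34 and 1.34.

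**Figure D5:**
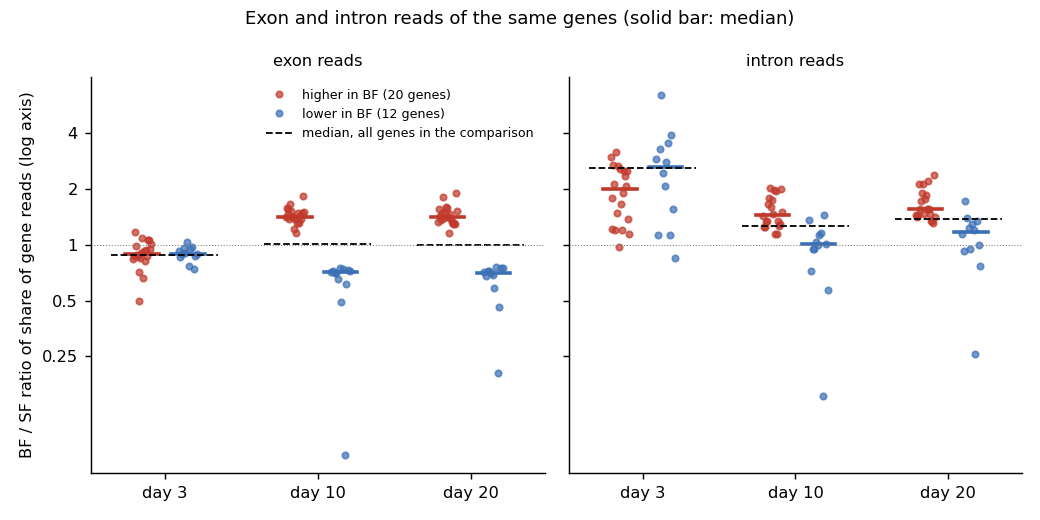
BF/SF ratio of exon reads (left) and intron reads (right), as shares of gene reads, on a log axis by day, for the 20 higher (red) and 12 lower genes (blue) with at least 100 intron reads in every group, with solid bars at their medians and dashed lines at the median of 5092 eligible genes. On day 3 the medians are 0.893 and 0.896 in exon reads, beside a dashed line at 0.882, and 1.99 and 2.62 in intron reads, beside a line at 2.61, and on days 10 and 20 the sets part in exon reads at medians of 1.42 and about 0.71.

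The late-only genes were of ordinary structure and of lower abundance than the eligible genes. Their median exon number was 5, as in eligible genes, their median exon length 2247 against 2341 bases, and their median gene length 16682 against 20041.5 bases. The median level was 12.1 CPM and 9.94 TPM (a scale that also corrects for transcript length), against 37.3 CPM and 31.4 TPM. Higher genes had a median of 10.4 CPM and lower genes of 17.6 CPM. Chromosome 2 held 49 of the 101 (48.5%, against 38.9% of eligible genes), chromosome 3 held 28 (27.7%, against 33.5%), chromosome 1 held 17 (16.8%, against 24.01%) and unplaced scaffolds held 7 (6.93%, against 3.61%). These shares were not tested. Of the 101, 31 overlapped another gene, 18 of them on the opposite strand, and the sources used here do not say whether counting used the strand.

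Neighbouring members were few. Within 500 kb of each other lay 6 pairs, each of genes that moved in the same direction on all reads. Nothing is read from this agreement, because 72 of the 101 genes were higher. For the pair of AAEL025965 and AAEL020319 the direction is also uncertain, since almost all of their reads were shared with other genes. The closest on a chromosome were AAEL019839 and AAEL021303 on chromosome 1, 6.81 kb apart on opposite strands, with ratios of 1.67 and 1.502 on day 10 and 1.65 and 1.48 on day 20. AAEL019940 and AAEL000184 lay 65.1 kb apart on chromosome 3 and AAEL019534 and AAEL019438 lay 126 kb apart on chromosome 1, all of them higher in BF. Between each of these pairs there were 2 other protein-coding genes.

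Genes with a symbol were outside the rule by their naming alone, and 11 of the 640 that met its other conditions had the same course, 9 higher and 2 lower. CRY1, a cryptochrome of the circadian clock, held 18.4, 23.2 and 24.9 CPM in SF and 31.3, 30.3 and 37.5 CPM in BF ovaries on day 10, and 19.8, 20.7 and 18.6 against 33.1, 33.1 and 39.2 CPM on day 20, after a day 3 ratio of 0.895. Or55, an odorant receptor, had ratios of 1.10, 1.97 and 2.01, whereas Orco, the co-receptor with which odorant receptors form a channel, had ratios of 1.05, 0.663 and 0.630. Or55 and Orco thus lay on opposite sides, at means over all libraries of 1.72 and 1.07 CPM.

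PGRPLB, a peptidoglycan recognition protein, also on the higher side, had ratios of 1.08, 1.53 and 1.38 on days 3, 10 and 20, and GNBPA2, a Gram-negative bacteria binding protein, had 1.13, 1.54 and 1.70. LRIM18, a leucine-rich immune protein, had 1.06, 1.73 and 1.53, and CLIPC5B, a CLIP-domain serine protease, had 1.09, 1.43 and 1.45. PGRPLB and GNBPA2 had means over all libraries of only 1.63 and 1.70 CPM. Some nearest libraries were close. The lowest BF and highest SF libraries held 1.82 and 1.78 CPM in PGRPLB on day 20, and 1.91 and 1.78 CPM in GNBPA2 on day 10. On day 20 they held 29.5 and 28.9 CPM in LRIM18, but 7.53 and 6.20 CPM in CLIPC5B. The others on the higher side were CYP6Y3, a cytochrome P450 (1.45 and 1.32 on the late days), GPRNNA7 (1.55 and 1.48) and twf (1.305 and 1.32), named in *Drosophila* for the actin-binding protein twinfilin. On the lower side calypso, in *Drosophila* a deubiquitinase of a Polycomb complex, held 24.2, 24.9 and 24.4 CPM in SF and 16.7, 16.6 and 16.5 CPM in BF ovaries on day 10. These 11 genes were found by the same values, and none of their differences was tested.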

How the data were processed

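The authors used the CLC genomics workbench to trim reads and map them to AaegL5.0, and deposited for each library whole-number counts of total, unique, exon and intron gene reads, not normalized, and TPM values from the same run. The sources used here do not give the annotation release used for counting, its strand setting or its sharing of multi-mapping reads. CPM was computed from total gene reads and their sum over a library.

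Counts were fitted in R 4.3.3 with edgeR 4.0.16 (filterByExpr, TMM, robust quasi-likelihood, 6 groups, 13 residual degrees of freedom). Day contrasts averaged over diets were tested, Benjamini-Hochberg adjusted over 13904 genes. BF against SF estimates are given with standard errors only. The fit was tested on simulated data. Other steps ran in Python 3.11.15 (pandas 2.3.3, matplotlib 3.10.9, numpy 2.4.6).

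Named genes are the 8 largest late ratios and 3 most abundant in each direction, the extremes of each day contrast and the genes nearest each limit. Genes and lists were chosen with earlier results of these data known. Alternatives were RLE, upper-quartile or no scaling, no low-count filter, exon or unique reads, limma-voom (limma 3.58.1), DESeq2 1.42.0, an FDR of 0.01, a replicate block, other limits, and leaving out each library. Product names, sequences, muscle and neuron markers and 1 germ line identifier were not matched and not analysed here.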

Additional observations from a re-analysis of the deposited data

How the results depend on the processing

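The choice of genes depended on the rule more than on the reads counted. The fold limits without the condition on overlap gave 161 genes, and limits of 1.5 and 0.67 gave 36. CPM scaled by TMM gave 98 genes, 70 of them among the 101, but split them 50 higher and 48 lower in place of 72 and 29. RLE gave 98 (58 higher and 40 lower, 69 shared), exon reads 118 (78 shared), unique reads 98 (87 shared), a mean of at least 0.1 CPM 113 and of at least 5 CPM 78. Leaving out 1 library at a time gave 95 to 119 genes, of which 85 to 97 were among the 101, and 30 of the 101 (29.7%) were kept in every omission.

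For change with time, 31, 48 and 6 genes were called between days 3 and 10, 3 and 20, and 10 and 20. An FDR of 0.01 gave 19, 28 and 3, and DESeq2 gave 13 between days 10 and 20. Without 1 library at a time the numbers ran from 24 to 34, from 43 to 50 and from 3 to 7. Of the calls of single named genes under the alternatives, 782 kept their side of the threshold and 56 lost it, 22 of them for the fall of AAEL009623 to day 10, which is not given above, and none turned direction. On unique reads the log2 BF/SF ratio turned for AAEL011497 on day 20 (-0.025), AAEL020319 on day 20 (0.048) and AAEL017192 on days 10 and 20 (0.48 and 0.51).

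Same-numbered libraries of the same day had correlations of -0.0191 to 0.218 in their deviations from the group means, and over all 45 same-numbered pairs the median was 0.112, against -0.0379 over 105 pairs with different numbers, with 5 of 9 same-day pairs over 0.1. Because not every pair was over 0.1 and no label ties a number to shared animals or a shared day, the numbers were not taken to pair the samples. As a hint from the data and not the design, 16 of 18 libraries correlated best with their own number. With the replicate block 34, 49 and 7 genes were called over time, 29, 46 and 6 of them the same, and ratios of same-numbered libraries gave 136 genes, 89 of them among the 101. Genes near 1 CPM rest on as few as 22 reads in a library, which limits their ratios most.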
